A study of Mus musculus with 6 samples.

Results

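Tnmd, Angptl7, Ccdc3, Fam189a1 and Pdgfra are 5 genes of connective tissue that were followed through the 6 RNA-seq libraries of a study of the ageing mouse cochlea. They are 5 of the 17091 gene symbols in the deposited table and were chosen by their large falls in old lateral wall, that is, by the same old-against-young values that are given below. Their differences between the ages are therefore a description, with no test. The lateral wall is the outer wall of the cochlear duct and holds the stria vascularis and the spiral ligament, a connective tissue of fibrocytes and matrix. The young group was 3 CBA/CaJ mice aged 2 months and the old group 3 CBA/CaJ mice aged 2.5 years, with no allele or agent named in the labels for either group. Each library pooled the 2 cochleas of 1 mouse, so n counts mice. The study's title asks which molecules change with age in this tissue.

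Tenomodulin, the product of Tnmd, is a membrane protein of tendon and ligament cells that is known as a marker of their late differentiation, and its nearest relative chondromodulin (Cnmd) is a protein of cartilage. PDGFRα, the product of Pdgfra, is a receptor tyrosine kinase: PDGF ligands bring receptor chains together as dimers, the chains phosphorylate each other, and adaptor proteins and PI3 kinase bind to the phosphorylated sites. The receptor is widely used as a marker of fibroblasts and other mesenchymal cells, and also of oligodendrocyte precursors. Angptl7 encodes a secreted angiopoietin-like protein best known from the cornea and the outflow tissue of the eye, Ccdc3 a secreted coiled-coil protein described in endothelial and fat cells, and Fam189a1 a membrane protein of a small family about which less is known.

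The 5 genes lie on 5 chromosomes (GENCODE M21 on GRCm38). Tnmd spans chrX:133850980-133865577 on the plus strand, Angptl7 chr4:148495183-148500460 on the minus strand, Ccdc3 chr2:5137776-5230878 on the plus strand, Fam189a1 chr7:64756091-65156570 on the minus strand and Pdgfra chr5:75152292-75198215 on the plus strand. Angptl7 lies inside Mtor, which runs on the opposite strand, but shares 0 exon bases with it, and Fam189a1 shares 0 exon bases with Nsmce3, which lies within it on the same strand. Mtor and Nsmce3 were not called different between the ages (log2 differences −0.02 and −0.15). Ccdc3 shares 1845 exon bases, 69.1% of its exon length, with the antisense lincRNA Gm26776, which is not a symbol of the table. The sources used here do not say whether the counting used strand, so reads of Ccdc3 and Gm26776 cannot be told apart. Of the exon length of Pdgfra, 4.55% is shared with the antisense gene Gm42802 and 1.66% with Gm42803.

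The sequences just before the start sites show how unlike the promoters of these genes are in base composition. The sequence before Tnmd is AT-rich, that before Fam189a1 is a CpG-dense stretch, and that before Angptl7 lies near the middle and holds 3 E-boxes, the 6-letter motif CANNTG that basic helix-loop-helix factors bind. They are printed 5′ to 3′ on the strand of the gene, from the RefSeq promoter table (GRCm38.p6), cut where an annotated exon begins, with E-boxes in capitals.
Tnmd, chrX:133850758-133850979, plus strand: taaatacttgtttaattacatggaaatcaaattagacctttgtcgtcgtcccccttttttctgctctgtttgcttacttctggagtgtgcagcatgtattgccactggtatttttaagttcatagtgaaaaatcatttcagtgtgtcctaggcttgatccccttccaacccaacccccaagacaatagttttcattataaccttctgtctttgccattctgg
Angptl7, chr4:148500463-148500712, minus strand: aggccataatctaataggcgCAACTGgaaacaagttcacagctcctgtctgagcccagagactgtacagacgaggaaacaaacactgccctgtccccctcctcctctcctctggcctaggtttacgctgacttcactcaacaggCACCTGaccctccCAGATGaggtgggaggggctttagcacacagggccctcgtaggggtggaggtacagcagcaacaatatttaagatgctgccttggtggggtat
Fam189a1, chr7:65156571-65156778, minus strand: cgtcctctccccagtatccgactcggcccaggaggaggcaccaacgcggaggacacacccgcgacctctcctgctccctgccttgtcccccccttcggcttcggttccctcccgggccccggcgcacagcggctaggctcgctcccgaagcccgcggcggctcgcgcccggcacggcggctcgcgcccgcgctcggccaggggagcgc
In the whole window of 250 bases before each start, GC content was 38.4% for Tnmd, 54.4% for Angptl7, 65.2% for Ccdc3, 78.4% for Fam189a1 and 54.4% for Pdgfra, where the median of 32851 mouse promoter windows of that length was 52.4%. Each window ends at the RefSeq start, and those of Tnmd and Fam189a1 run past the printed 222 and 208 bases into annotated exon. Only 9.0% of all windows had a lower GC content than that of Tnmd, whereas 98.1% had a lower one than that of Fam189a1. The windows held 2 CpG dinucleotides for Tnmd, 4 for Angptl7, 22 for Ccdc3, 39 for Fam189a1 and 4 for Pdgfra, against a median of 6. The 3 E-boxes of Angptl7 begin 230 (CAACTG), 106 (CACCTG) and 93 (CAGATG) bases before the start, and that of Pdgfra (CATCTG) 182 bases before it. The RefSeq start of Pdgfra lies upstream of its GENCODE gene model, so its position holds for the RefSeq start only. At least 1 E-box was found in 66.2% of all windows. The motifs CCAAT and GGGCGG, searched on both strands, occur in 33.8% and 32.7% of all windows. Ccdc3 had 1 match to CCAAT and 2 to GGGCGG, and Fam189a1 had 1 to GGGCGG. That of Fam189a1 begins 36 bases before the start, in the exon part that is not printed. None of the 5 windows holds TATAAA (12.4% of all windows) or TGANTCA (6.7%). No motif was found in all 5 windows, and a match of letters is not evidence of binding.

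In every one of the 5 genes each old library lay below each young library. The same holds for 2194 of the 17091 genes (12.8%), and because these genes were selected on this contrast nothing is read from that count. Values are normalised read counts (reads scaled by the size factor of each library), and 1 read was worth 0.946 to 1.049 units.

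Tnmd stood at 392, 385 and 269 in young replicates 1, 2 and 3 and at 16.5, 36.9 and 13.5 in old replicates 1, 2 and 3. The groups were far apart: the lowest young library held 7.28 times the value of the highest old one. The means were 349 ± 69.4 and 22.3 ± 12.7 (SD, n = 3 each), so that old mice kept 6.39% of the young level, 15.7-fold less. On the log2(value + 1) scale the difference, old minus young, was −4.02 with an SE of 0.37, which ranked 2nd from the largest fall of the 13308 genes whose mean over the libraries was at least 50. The old values rest on few reads, 17, 39 and 14, with 95% Poisson intervals of 9.9 to 27.2, 27.7 to 53.3 and 7.65 to 23.5 that cover counting error only. Old replicate 2 was the highest old library, and the interval of its reads all but met that of old replicate 1.

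Fam189a1 had the next largest difference, from 107, 84.0 and 105 in the young to 12.6, 21.7 and 10.6 in the old libraries. Its means were 98.7 ± 12.8 and 14.97 ± 5.96 (SD, n = 3 each), 6.59-fold lower in the old mice, with a log2 difference of −2.70 (SE 0.34). It had the lowest level per kb of exon of the 5 genes in both ages. Old replicate 2 was again the highest old library, but the reads behind it, 23 (14.6 to 34.5), overlap within counting error with the 13 (6.92 to 22.2) of old replicate 1 and the 11 (5.49 to 19.7) of old replicate 3.

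Ccdc3 stood at 795, 699 and 776 in the young and at 104, 153 and 145 in the old libraries. The young libraries were close to each other, the highest exceeding the lowest by a factor of 1.14, and the old libraries differed among themselves by a factor of 1.48. The means were 757 ± 50.9 and 134 ± 26.5 (SD, n = 3 each), 5.65-fold lower in the old mice, and the log2 difference was −2.51 (SE 0.19).

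Angptl7 stood at 159, 344 and 320 in the young and at 51.4, 40.7 and 47.1 in the old libraries. Here the spread was in the young group, where the highest library held 2.16 times the lowest, while the old libraries differed by a factor of 1.26. Young replicate 1 was the library nearest to the old group and was still 3.10 times its highest value. The means were 274 ± 100.4 and 46.4 ± 5.40 (SD, n = 3 each), 5.92-fold lower in the old mice, with a log2 difference of −2.47 (SE 0.31).

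Pdgfra, the gene with the highest level per kb of exon, stood at 6602, 6139 and 6167 in the young and at 2767, 2894 and 2904 in the old libraries. Libraries of 1 age were nearly alike, within a factor of 1.08 among the young and 1.05 among the old. The means were 6303 ± 259.6 and 2855 ± 76.1 (SD, n = 3 each), 2.21-fold lower in the old mice, with a log2 difference of −1.14 (SE 0.09). This was the smallest difference of the 5 and ranked 175th of the 13308 genes, against ranks 7, 9 and 10 for Fam189a1, Ccdc3 and Angptl7. The authors' deposited table gives folds of 15.6 for Tnmd, 6.59 for Fam189a1, 5.92 for Angptl7, 5.65 for Ccdc3 and 2.21 for Pdgfra, each lower in old mice.

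**Figure D1:**
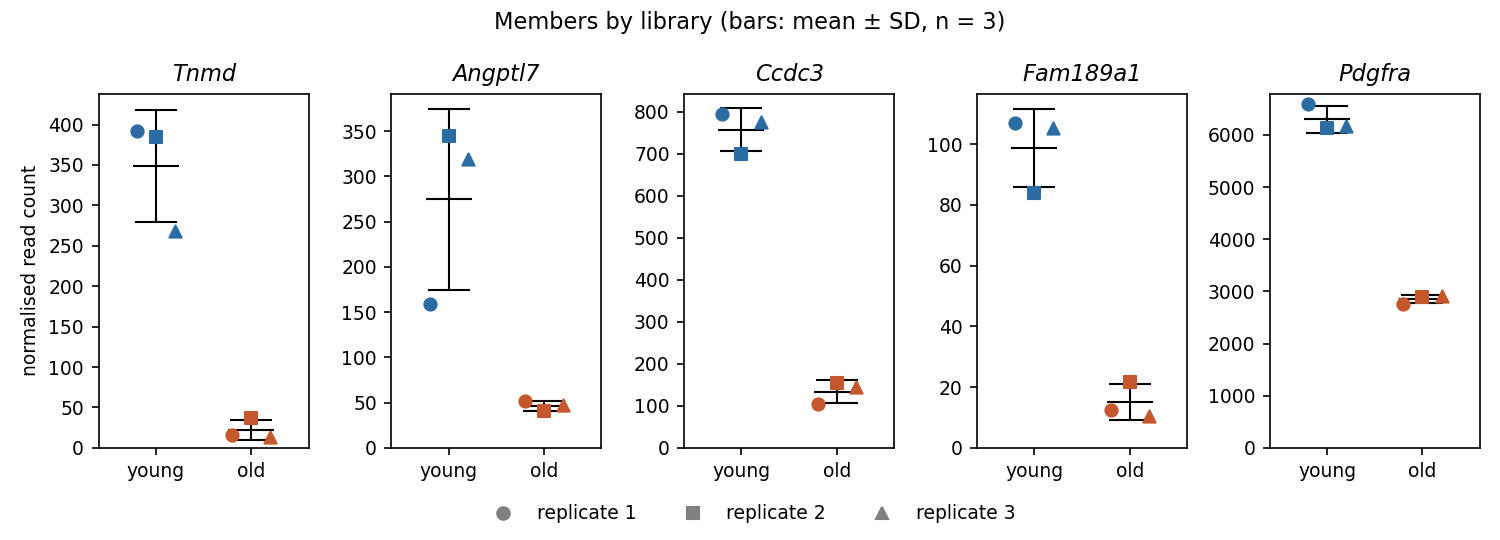
Normalised read counts of Tnmd, Angptl7, Ccdc3, Fam189a1 and Pdgfra in each library (linear axes from 0, a scale of its own for each gene); symbols mark the replicate number and bars the mean ± SD of 3 mice. All old libraries lie below all young libraries in each panel, with the widest young spread in Angptl7 and the narrowest spread in Pdgfra.

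Levels can be compared between genes only per length. Per kilobase of exon, the young order was Pdgfra (629 ± 25.9 normalised read counts per kb), Ccdc3 (283 ± 19.1), Tnmd (258 ± 51.3), Angptl7 (127 ± 46.5) and Fam189a1 (18.6 ± 2.41; SD, n = 3 each). Ccdc3 and Tnmd did not differ beyond their spread in this order. In the old mice the order of levels per kb was Pdgfra (285 ± 7.59), Ccdc3 (50.2 ± 9.93), Angptl7 (21.5 ± 2.50), Tnmd (16.5 ± 9.42) and Fam189a1 (2.82 ± 1.12), with Angptl7 and Tnmd overlapping. Tnmd, close to Ccdc3 in the young tissue, thus stood at about the level of Angptl7 in the old.

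The genes differed in how far their old libraries spread around the low level, and counting error is part of that spread. The old values rest on 14 to 39 reads for Tnmd, 11 to 23 for Fam189a1 and 2854 to 3060 for Pdgfra. How much of the spread lay between mice was not tested. On the log2 scale the SD among old libraries was 0.74 for Tnmd, 0.51 for Fam189a1, 0.30 for Ccdc3, 0.17 for Angptl7 and 0.04 for Pdgfra, where the median of the 13308 ranked genes was 0.177. Among young libraries the SD was 0.31 for Tnmd, 0.19 for Fam189a1, 0.10 for Ccdc3, 0.61 for Angptl7 and 0.06 for Pdgfra, against a median of 0.136. Relative to their own old means, Tnmd was at −0.28, 0.84 and −0.55 in old replicates 1, 2 and 3, and Fam189a1 at −0.17, 0.57 and −0.40. Old replicate 2 was thus the highest, and old replicate 3 the lowest, in both. Ccdc3 was also highest in old replicate 2 (0.21) but lowest in old replicate 1 (−0.35), while Angptl7 was lowest in old replicate 2 (−0.18). The values of the 5 genes therefore did not follow 1 order in the old libraries, but counting error limits this reading. The 95% Poisson intervals of all 3 old libraries overlap for Angptl7 (53, 43 and 49 reads) and for Fam189a1. Those of Tnmd overlap between old replicates 1 and 3 (17 and 14 reads). Those of Ccdc3 do not overlap between old replicates 1 and 2 (107 and 162 reads). Coch, the abundant matrix gene of spiral ligament fibrocytes, stood at 437868, 728041 and 322028 in old replicates 1, 2 and 3. It was thus highest in old replicate 2 as well. Its part in the values of Tnmd and Fam189a1 was not tested.

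**Figure D2:**
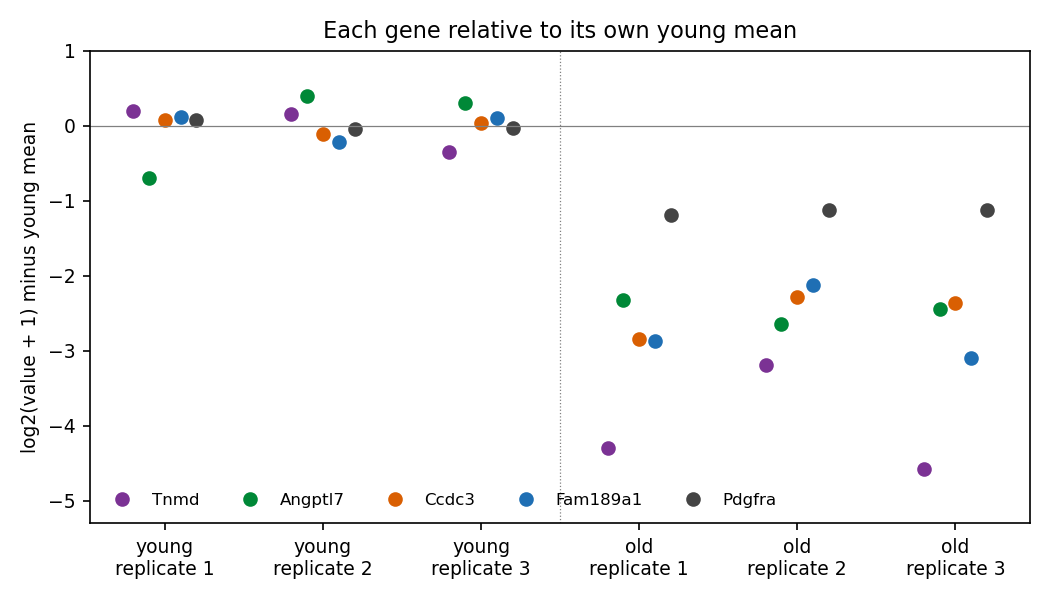
log2(value + 1) of each of the 5 genes minus its own mean over the young libraries, by library. Old libraries reach −3.19 to −4.58 for Tnmd and −1.12 to −1.19 for Pdgfra, with Angptl7, Ccdc3 and Fam189a1 between them.

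Likeness of profiles was measured as the root mean square difference, over the 6 libraries, between log2(value + 1) values centred on each gene's young mean. The 6 points share 1 contrast on which the genes were chosen, so these are descriptions. The most alike pair among the 5 was Ccdc3 and Fam189a1 (0.31), although their young levels per kb of exon were 283 and 18.6. Angptl7 differed by 0.474 from Ccdc3 and by 0.595 from Fam189a1. Tnmd stood apart, 0.977 from Fam189a1 and 2.08 from Pdgfra.

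Neighbours were sought among the 13308 ranked genes after predicted and unnamed gene models were left out. The one most like Tnmd was Col1a2 (0.561), a chain of type I collagen. It averaged 9214 in young and 736 in old libraries (log2 difference −3.73). Bglap, the gene of the bone protein osteocalcin (0.983), and Col3a1, the type III collagen chain (1.02), came after Fam189a1, and Ccdc3 (1.15) followed. Nearest to Angptl7 were Tenm3, a teneurin of the cell surface (0.401), Srpx (0.432), Col4a3, a basement membrane collagen chain (0.433), Heph, a copper-containing iron oxidase (0.449), and Slc2a4, the insulin-responsive glucose transporter (0.462). Col4a3 and Slc2a4 shared with Angptl7 the low value of young replicate 1. Col4a3 stood at 815 there and at 1664 and 1386 in young replicates 2 and 3, and Slc2a4 at 236 there and at 673 and 528.

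Nearest to Ccdc3 were Hhip, an inhibitor of hedgehog ligands (0.269), Col5a2, a fibrillar collagen chain (0.292), and Hist2h2aa2 (0.303), a histone gene with near-identical copies whose reads are uncertain, followed by Fam189a1 and Srpx (0.321). Nearest to Fam189a1 were Ccdc3, Hhip (0.324), Srpx (0.406), Col3a1 (0.461) and Aqp1, a water channel (0.47). Aqp1 stood at 2108, 5456 and 1589 in the old libraries. Its values thus had the same order there as those of Fam189a1 and Tnmd. That order lay within counting error for Fam189a1 and partly so for Tnmd. Pdgfra had much closer neighbours, at root mean square differences of 0.115 to 0.134: Vit, the matrix protein vitrin, which averaged 1408 in young and 689 in old libraries, then Stk32b, Ranbp17, Capn6 and Mroh3. All 5 of these neighbours of Pdgfra had log2 differences between −1.03 and −1.12, which follows from their choice by likeness of profile.

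Over the whole table, 435 genes (2.55%) were called lower and 463 (2.71%) higher in old lateral wall (limma, Benjamini-Hochberg adjusted p under 0.05 over all genes), and the median log2 difference of all genes was −0.001. The lists of related genes that follow contain none of the 5 genes. Tendon and ligament genes had 5 of 20 measured members called lower and 1 called higher, with a median log2 difference of −0.38. Called lower were Col12a1, a collagen that sits on fibril surfaces (−1.11 ± 0.19, SE), Cilp2, a cartilage and meniscus matrix protein (−1.36 ± 0.24), Abi3bp, a matrix protein also known as TARSH (−1.21 ± 0.22), Ctgf, the connective tissue growth factor (−1.18 ± 0.23), and Kera, the proteoglycan keratocan (−3.33 ± 0.67). Their limma adjusted p were 0.0143, 0.0149, 0.0182, 0.0285 and 0.0248. Kera was scarce, at 13.6, 16.6 and 14.3 in the young and 0, 2.84 and 0 in the old libraries, and its 43 young against 3 old reads give a ratio of 15.5 (95% interval 4.96 to 78.0 from counting alone). Its log2 difference depended on the pseudocount, at −5.59 with 0.1, where the call was lost (limma adjusted p = 0.063), and −1.19 with 10. Col14a1, another fibril-associated collagen, was called higher (1.79 ± 0.33, limma adjusted p = 0.0189), at 78.7, 87.1 and 41.9 in the young and 173, 222 and 320 in the old libraries.

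The regulators and the close relative of tenomodulin did not pass the test. Scx, the tendon transcription factor scleraxis, had a log2 difference of 0.13 (95% interval −0.24 to 0.49) and stood at 325 to 381 in young and 356 to 460 in old libraries, so the groups overlapped. Mkx, the homeobox factor mohawk, had one of −0.22 (−1.10 to 0.65). Cnmd, the only other member of the tenomodulin family, averaged 18098 in young and 14664 in old libraries, a log2 difference of −0.33 (−0.82 to 0.15). Because Tnmd was chosen by its fall, no test sets these genes against it. Without young replicate 2 or 3 the calls of Col12a1, Cilp2, Abi3bp, Ctgf and Kera were lost (limma adjusted p up to 0.114, for Ctgf). Genes called lower over the whole table then fell from 435 to 114 and 91. The log2 differences there were −1.11 and −1.03 for Col12a1, −1.31 and −1.37 for Cilp2 and −1.25 and −1.25 for Abi3bp. They were −1.07 and −1.17 for Ctgf and −3.26 and −3.36 for Kera. Calls were also lost for Abi3bp and Kera without young replicate 1, Ctgf without old replicate 2 and Kera without old replicate 3. The call of Col14a1 was lost without young replicate 3 or old replicate 3 (limma adjusted p up to 0.0678).

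Among the partners of Pdgfra, 1 of 6 PDGF ligands and receptors was called, and it was lower. This was Pdgfd, a ligand that acts mainly on PDGFRβ, at 598, 498 and 396 in the young and 270, 278 and 283 in the old libraries (log2 difference −0.82 ± 0.18, SE, limma adjusted p = 0.0313). The groups did not overlap, but the call was lost without any 1 library other than old replicate 2 (adjusted p up to 0.117). The ligands with affinity for PDGFRα showed no call: Pdgfa had a log2 difference of 0.20 (95% interval −0.14 to 0.53), Pdgfb one of −0.16 (−0.79 to 0.47) and Pdgfc one of 0.05 (−0.40 to 0.50). Pdgfrb, the second receptor chain, stood at 3164, 4157 and 4497 in the young and 2105, 3414 and 2429 in the old libraries. Old replicate 2 exceeded young replicate 1, so these groups overlapped, and its log2 difference of −0.59 (−1.03 to −0.15) did not pass the test (limma adjusted p = 0.127). Pdgfrl, a receptor-like gene without a kinase domain, had a log2 difference of −0.84 (−1.40 to −0.29, limma adjusted p = 0.0885). Without old replicate 2 both were called, Pdgfrb at an adjusted p of 0.0196 and Pdgfrl at 0.0186. With all libraries, DESeq2 called Pdgfrl (adjusted p = 0.0168) but not Pdgfrb (0.0501), whereas the authors' deposited table has Pdgfrb at 0.0499. Per kb of exon, the level of Pdgfra was 629 and that of Pdgfrb 719 in young mice, and 285 and 484 in old mice. Whether the difference of Pdgfra exceeded that of Pdgfrb was not tested.

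Downstream of the receptor, 2 of 16 signalling genes were called, both lower, where 2.55% of all genes were called lower. The median log2 difference of the list was −0.06. Pik3r1, the main regulatory subunit of PI3 kinase, averaged 10902 ± 745.5 in young and 7036 ± 1183 in old libraries (−0.64 ± 0.13, SE, limma adjusted p = 0.0254). Shc1, an adaptor, averaged 4060 ± 375.4 and 2990 ± 16.8 (−0.44 ± 0.10, limma adjusted p = 0.035). Pik3r2, another PI3 kinase subunit (−0.22), and Plcg1, a phospholipase C (−0.33), were not called. The call of Pik3r1 was lost without old replicate 1 or any 1 young library (adjusted p up to 0.103), and that of Shc1 without any 1 library other than young replicate 1 (up to 0.147).

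In the family of Angptl7, 1 of 11 angiopoietins, angiopoietin-like genes and receptors was called, where 2.55% of all genes were called lower and 2.71% higher. The median log2 difference of the list was 0.03, and 3 of its genes had a mean under 10. Angptl1 stood at 1013, 812 and 1173 in the young and 496, 318 and 320 in the old libraries (−1.42 ± 0.21, SE, limma adjusted p = 0.00771). Its groups did not overlap, and it still passed the test when any 1 of the 6 libraries was left out (adjusted p up to 0.0451). Angptl2, which encodes a secreted protein of the same family, averaged 2363 in young and 2446 in old libraries (0.03), and Angptl6 (0.07), Angptl4 (−0.57), Angpt1 (0.39) and Angpt2 (0.66) were not called. Leaving out 1 library gave −1.01 to −0.09 for Angptl4, 0.18 to 0.54 for Angpt1 and 0.39 to 1.10 for Angpt2. These kept their sign, whereas Angptl6 changed sign. The receptor genes of the angiopoietins, Tek (0.19) and Tie1 (0.15), were not called either.

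In the family of Fam189a1, neither Fam189a2 nor Fam189b was called by limma, edgeR or DESeq2, and 0 of the 2 had an unadjusted p under 0.05. Fam189a2 averaged 3954 in young and 3399 in old libraries (log2 difference −0.23, 95% interval −0.54 to 0.07) and Fam189b 804 and 708 (−0.19, −0.49 to 0.11).

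**Figure D3:**
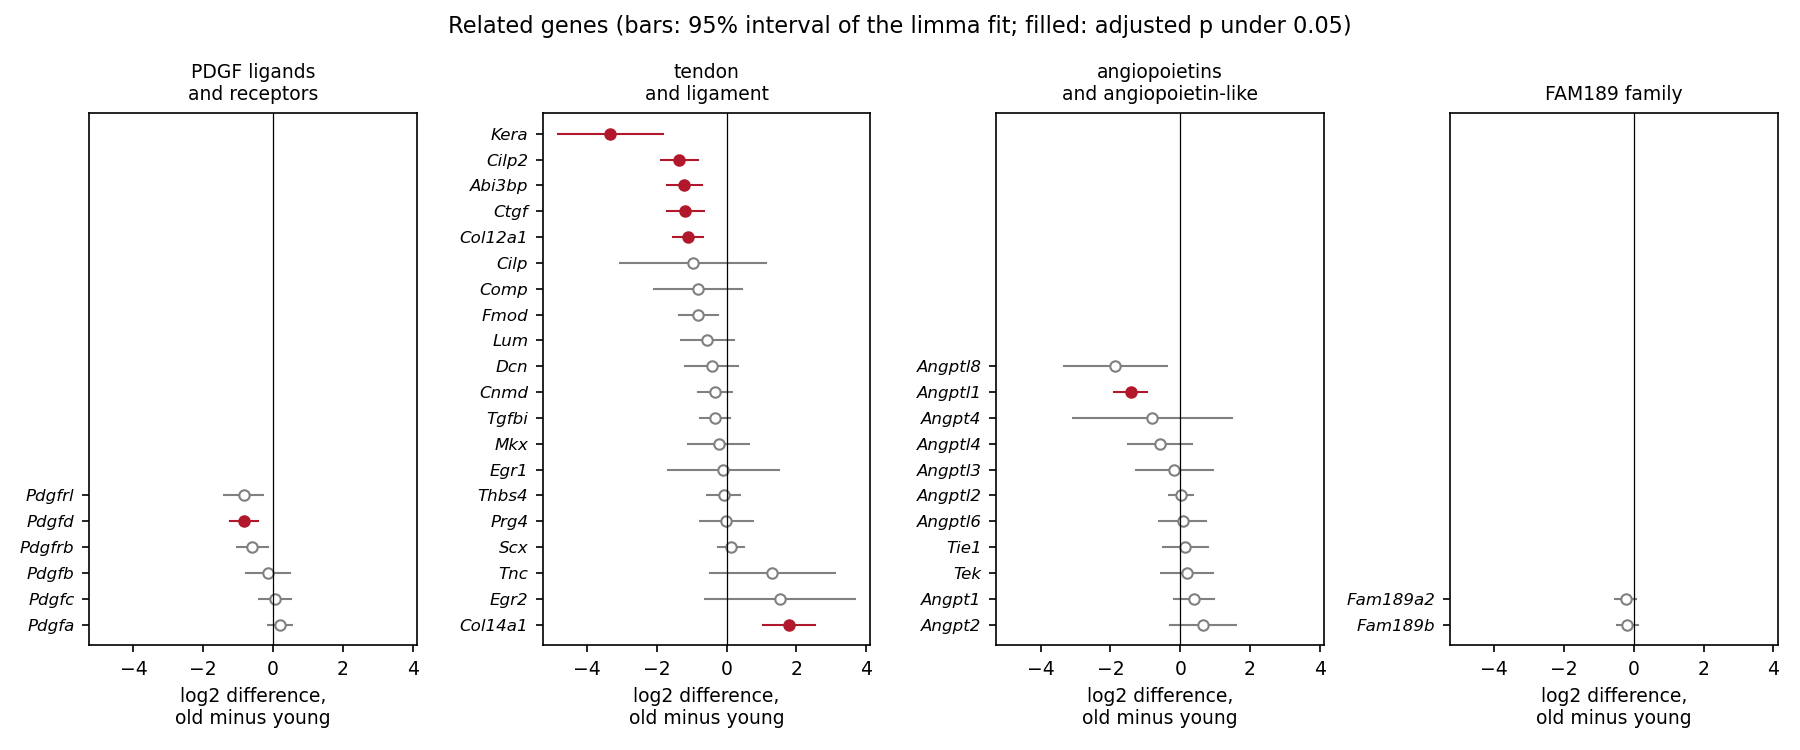
log2 difference, old minus young, of the related genes of 4 lists, with 95% intervals of the limma fit; filled points have an adjusted p under 0.05. Pdgfd, Angptl1 and 5 tendon and ligament genes are called lower, Col14a1 is called higher, and the FAM189 genes lie close to 0.

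Fibroblast genes, among which Pdgfra is commonly counted, went both ways. Of 24 measured genes, 3 were called lower and 3 higher (2.55% and 2.71% of all genes), with a median log2 difference of −0.30. Lower were Ogn, the proteoglycan osteoglycin (−1.29 ± 0.25, SE), Fbln1, the matrix protein fibulin (−0.65 ± 0.14), and Gsn, the actin-severing protein gelsolin (−0.57 ± 0.11), at limma adjusted p of 0.0296, 0.0327 and 0.0194. Higher were S100a4, a calcium-binding protein of fibroblasts and leukocytes (1.67 ± 0.32), Vim, the intermediate filament vimentin of mesenchymal cells and leukocytes (0.73 ± 0.16), and Thy1, also a neuronal and T cell surface protein (2.57 ± 0.56), at 0.0215, 0.033 and 0.0388. Each of these 6 calls was lost without young replicate 2 or 3 (adjusted p up to 0.149). Genes called lower over the whole table then fell from 435 to 114 and 91. The calls of the 3 higher genes were also lost without old replicate 3. Of the 6 calls, all but that of S100a4 were lost without young replicate 1 too, that of Gsn without old replicate 1 and that of Thy1 without old replicate 2.

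Bulk tissue cannot tell fewer cells of a type from less RNA per cell, so the marker lists of cells that could be in the dissected tissue were summed in each library. Spiral ligament fibrocyte markers (13 genes) summed to 1670957 to 1833838 normalised read counts in young and 1098506 to 1505678 in old libraries, without overlap, and the median log2 difference of the list was −0.33. Otos, which encodes otospiralin, was called lower (−1.71) and Kcnk2, a potassium channel gene, higher (2.20, from 87.0 to 428). Coch, which averaged 787547 in young and 495979 in old libraries and was not called, and Otos, at 151382 and 46735, made up most of the difference between the sums. Strial markers overlapped, at 445920 to 461203 in young and 344379 to 471921 in old libraries. Of 13 bone markers, 6 were called lower, Bglap, Bglap2, Phex, Dmp1, Mepe and Sost, with a median log2 difference of −1.65. The sum of the bone list overlapped, at 318343 to 373850 in young and 301832 to 366457 in old libraries, and Spp1, which averaged 337415 and 335146, made up most of it. Cartilage markers (12 measured) had 4 called lower and summed to 75091 to 81409 in young and 36605 to 63634 in old libraries. Skeletal muscle markers were scarce in both groups. Of 12 genes, 2 were called lower, Myh1, which was at 0 in all old libraries, and Mb. In 7 of the 12 every old library lay below every young one, as in 12.8% of all genes. The median log2 difference of the list was −1.62. The sums of the list overlapped, at 490 to 639 in young and 301 to 705 in old libraries. However, Pvalb, which neurons also express, made up 75.6, 424 and 473 of the sums of old replicates 1, 2 and 3. The part of bone, cartilage and muscle in the low values of Tnmd and the other 4 genes was not tested.

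Red cell and neutrophil markers (20 measured) summed to 3450 to 5383 in young libraries and to 26735, 8071 and 53074 in old replicates 1, 2 and 3. Of 13 macrophage markers, 9 were called higher, against 2.71% of all genes. The macrophage list summed to 7788 to 9289 in young and 25356 to 35970 in old libraries. Nerve and Schwann cell markers summed to 15426 to 18814 in young and 21679 to 37156 in old libraries. Endothelial and pericyte markers overlapped, at 28933 to 32659 and 25447 to 39427. Old replicate 2, the old library with the highest Tnmd and Fam189a1, had the lowest red cell and neutrophil sum of the old group, and the part of these cells in the result was not tested. Pdgfra is also a marker of oligodendrocyte precursors. The 6 measured markers of that list summed to 8975 to 12605 in young and 8393 to 11382 in old libraries, with overlap and a median log2 difference of −0.14. Olig1 stood at 0 to 7.69 and Sox10, which Schwann cells and melanocytes also express, at 5249 to 9013. Ptprz1 stood at 1546 to 2262, Cspg4 at 732 to 1737, Bcan at 146 to 448 and Gpr17 at 27.4 to 70.5. The part of such cells in the values of Pdgfra was not tested.

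**Figure D4:**
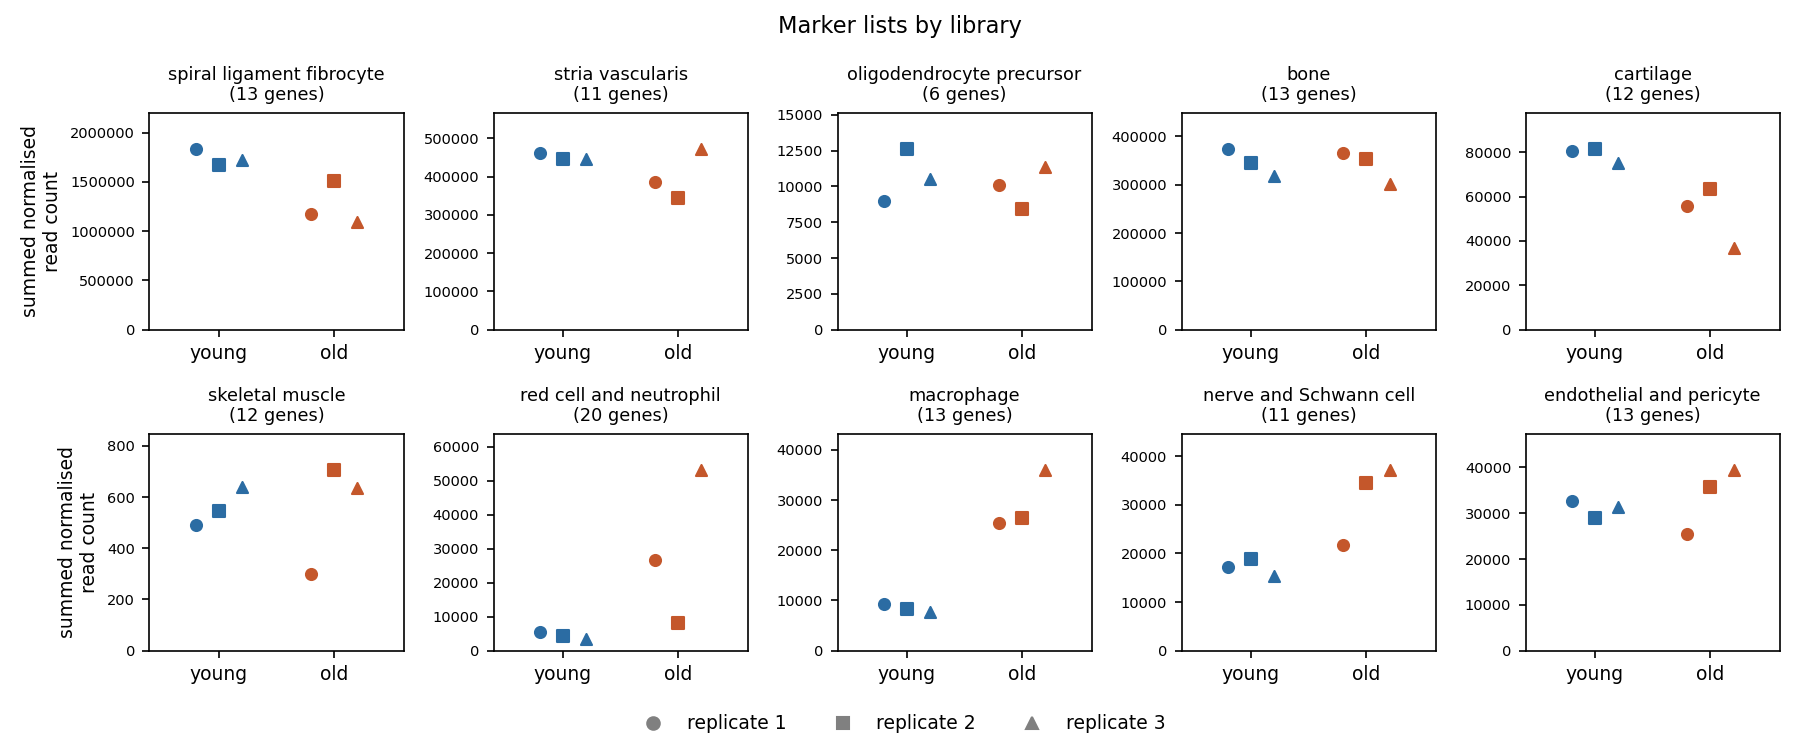
Summed normalised read counts (linear axes from 0) of each marker list by library; symbols mark the replicate number. Old libraries lie below young ones for fibrocyte and cartilage markers and above them for macrophage, nerve and Schwann cell, and red cell and neutrophil markers.

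Some facts of the whole data set bear on these values. Depth was nearly equal, at 37055355 to 39103398 recovered reads per library, a ratio of 1.055. The tissue label and titles name the lateral wall, and the source label of all samples names the auditory nerve. Xist, the RNA of the inactive X chromosome, stood at 24382 to 29162 in 5 libraries and at 45.2 in old replicate 3, and the labels give no sex. Tnmd is X-linked, and without old replicate 3 its log2 difference was −3.74.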

How the data were processed

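RNA was sequenced from 6 lateral wall samples, 1 mouse each. The p-values set the difference between the ages against the spread between mice, which includes counting error. The submitters' processing notes name Partek, TopHat2, DESeq2 and mm10 and give no version or role for them. Annotation and strand are not given in the sources used here. A table of 17091 symbols was used. Each value the authors deposited is a signal, a read count scaled by the size factor of the library: division by the step of the low values gave whole reads, within 0.1, for 99.9% of values and 100% of those under 10000. For each gene the authors deposited a signed fold, a p-value and, for all but 332 genes, an adjusted p-value.

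The 5 genes and all lists were chosen with earlier results of these data known. Differences were computed as log2(value + 1), a scale that understates changes at low counts, and tested with limma 3.58.1 (trend and robust, R 4.3.3) over all genes, 3 young against 3 old, with Benjamini-Hochberg adjustment and a threshold of 0.05. No filter was applied to low values, and all 5 genes were in the fit. With 3 against 3 libraries an exact permutation test of 1 value cannot reach 0.05, so none was run. Alternatives were edgeR 4.0.16 and DESeq2 1.42.0 on the recovered reads, other normalisations and pseudocounts, a mean filter, limma without trend, the replicate number as a block, the authors' adjusted p-values and leaving out each library. The plan named edgeR if the table held whole counts, which it does not.

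Named genes were every member with a mean of at least 50 of lists with up to 11 genes, the 4 genes with the smallest p of longer lists, the 5 genes most alike in profile to each of the 5, and genes at the same locus. The genes most alike in profile were sought among those with a mean of at least 50, without predicted or unnamed gene models. Members of the marker lists, and Kera, Ctgf, Cnmd, Scx, Mkx, Vim, Thy1 and Xist, were named outside this rule, after their values were seen. Of the listed genes, Tcf21, Olig2, Neu4, Matn3 and Ahsp were not analysed here. Of the symbols, 16913 (99.0%) matched 1 GENCODE M21 gene model, which gave positions and exon lengths. Promoter windows (250 bases before the start) are from RefSeq, and all 5 genes matched by symbol.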

Additional observations from a re-analysis of the deposited data

How the results depend on the processing

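Under the alternatives the 5 genes gave 65 log2 differences, all below 0, and 63 of them moved by less than 1 SD. The shared sign is no support for the falls. These genes were chosen by their fall and their groups did not overlap, so leaving out 1 library could not change a sign. The replicate block leaves these differences unchanged by design. Those that moved more were −2.14 for Fam189a1 with a pseudocount of 10 and −1.08 for Pdgfra after quantile normalisation. Leaving out 1 library gave −4.44 to −3.74 for Tnmd, −2.82 to −2.27 for Angptl7, −2.61 to −2.33 for Ccdc3, −2.98 to −2.49 for Fam189a1 and −1.16 to −1.11 for Pdgfra. Counts of called genes moved much more. The 435 genes called lower became 176 with the replicate number as a block, 113 without the variance trend, 843 with DESeq2, 843 by the authors' deposited adjusted p and 91 to 580 without 1 library. The replicate block left 3 tendon and ligament genes (6 in the main analysis), 0 PDGF ligands and receptors (1), 0 PDGF signalling genes (2) and 1 fibroblast gene (6), and limma without trend left 1, 0, 0 and 1 of these and 0 angiopoietin-like genes (1). Same-numbered samples did not deviate together (correlations −0.244, −0.096 and −0.088). No sign of pairing by number was seen, though 3 correlations cannot exclude it. DESeq2 called 2 PDGF ligands and receptors and the authors' adjusted p 3, and quantile normalisation left 1 signalling gene. Without 1 library the counts ran from 0 to 7 for tendon and ligament, 0 to 3 for PDGF ligands and receptors, 0 to 1 for signalling and 0 to 7 for fibroblast genes. The cause of these moves was not tested. Uncalled genes near 0 changed sign: Angptl6 to −0.18 and Mtor to 0.018 after quantile normalisation, and without 1 library Pdgfb (−0.35 to 0.18), Pdgfc (−0.11 to 0.26), Angptl2 (−0.16 to 0.14), Angptl6 (−0.12 to 0.23), Tek (−0.19 to 0.50), Tie1 (−0.17 to 0.48) and Mtor (−0.18 to 0.09). The 14 reads of Tnmd and 11 of Fam189a1 in old replicate 3 limit the precision of their old values.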
